A study of Mus musculus with 4 samples.

Results

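The genes of glucose breakdown, of the pentose phosphate branch and of the response to low oxygen were followed in mouse macrophages with and without interleukin-4 (IL-4) and with and without a label of DAP12 loss. The list holds 38 genes, taken by their symbol in the array annotation, each read by the brightest of the probe sets that name that gene alone. Of these, 34 could be read, among 12768 genes of the array that reached the level floor in at least 1 sample. Gpi1, Eno1 and G6pdx have no probe set named for them here, and Bnip3l is named only together with a pseudogene, so these 4 carry no value below. The measured genes are 16 glycolytic enzymes and transporters, 3 regulators of glycolytic flux, 3 pentose phosphate enzymes and 12 genes of the hypoxia-inducible factor (HIF) pathway. The first 3 groups are called the 22 metabolic genes.

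The cells were macrophages from the peritoneal cavity of mice given thioglycolate, an irritant that recruits monocyte-derived macrophages into the cavity. They were kept for 18 hours on permanox slides, a plastic culture surface. For both the WT and the Dap12-KO label there was 1 untreated sample and 1 kept with IL-4 for those 18 hours, each on 1 array with no replicate, so a difference between 2 arrays is a value without a test and the number of arrays limits its precision. All 4 samples share the thioglycolate recruitment. The labels give no strain, age, allele, number of mice or IL-4 dose, while the design text speaks of a knockdown of DAP12 and the titles of a knockout. The purpose named there was to see what loss of DAP12 does to expression at rest and in the response to IL-4. DAP12, encoded by Tyrobp, is an adaptor that carries signals from partner receptors of myeloid cells.

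Glycolysis splits glucose into pyruvate in the cytosol, and lactate dehydrogenase and the monocarboxylate exporter remove its end product when pyruvate does not enter mitochondria. The pentose phosphate branch leaves glycolysis at glucose 6-phosphate and yields NADPH and ribose. HIF is a transcription factor whose alpha subunit is marked for destruction by oxygen-using prolyl hydroxylases of the Egln family. When oxygen is short the subunit persists and switches on genes with a short core element in their control regions, among them many glycolytic genes as well as genes of mitophagy and collagen hydroxylation. Macrophages driven by bacterial products are known to rely on glycolysis and HIF-1 alpha, and those driven by IL-4 are known for oxidative metabolism.

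The promoters of 4 genes are shown. Slc2a1, Ankrd37 and Pfkl are the members with a window that differed 2-fold between the untreated genotypes, and Bnip3 gave the largest difference with IL-4 in Dap12-KO among the HIF pathway genes as deposited (−1.82; after loess −1.16, where Adm and P4ha2 differed more). Each window runs from 250 bases before to 50 after the annotated start, is written 5′ to 3′ on the gene's strand, and comes from RefSeq on GRCm38.p6. Capitals mark the core hypoxia response element, searched as the 5 letters ACGTG or GCGTG on both strands, where matches may overlap each other. Slc2a1 lies on the plus strand at chr4:119108495-119108794, Ankrd37 on the minus strand at chr8:45999801-46000100, Pfkl on the minus strand at chr10:78009758-78010057 and Bnip3 on the minus strand at chr7:138909457-138909756.
Slc2a1: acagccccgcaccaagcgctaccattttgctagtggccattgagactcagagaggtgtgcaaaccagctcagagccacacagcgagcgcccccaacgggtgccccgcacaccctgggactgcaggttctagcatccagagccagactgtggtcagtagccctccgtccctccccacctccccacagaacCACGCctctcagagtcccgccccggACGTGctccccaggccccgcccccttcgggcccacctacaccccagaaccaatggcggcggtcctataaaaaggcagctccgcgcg
Ankrd37: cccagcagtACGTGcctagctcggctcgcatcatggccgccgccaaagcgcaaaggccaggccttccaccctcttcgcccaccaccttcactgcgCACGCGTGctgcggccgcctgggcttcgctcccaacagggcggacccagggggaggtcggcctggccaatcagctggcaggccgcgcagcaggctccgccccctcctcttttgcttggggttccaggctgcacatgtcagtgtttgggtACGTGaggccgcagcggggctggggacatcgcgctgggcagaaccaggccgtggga
Pfkl: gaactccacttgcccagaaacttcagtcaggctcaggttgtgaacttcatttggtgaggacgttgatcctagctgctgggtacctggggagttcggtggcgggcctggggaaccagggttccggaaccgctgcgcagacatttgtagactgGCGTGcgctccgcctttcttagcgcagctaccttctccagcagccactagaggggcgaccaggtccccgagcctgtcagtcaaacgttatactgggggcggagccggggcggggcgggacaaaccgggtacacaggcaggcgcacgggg
Bnip3: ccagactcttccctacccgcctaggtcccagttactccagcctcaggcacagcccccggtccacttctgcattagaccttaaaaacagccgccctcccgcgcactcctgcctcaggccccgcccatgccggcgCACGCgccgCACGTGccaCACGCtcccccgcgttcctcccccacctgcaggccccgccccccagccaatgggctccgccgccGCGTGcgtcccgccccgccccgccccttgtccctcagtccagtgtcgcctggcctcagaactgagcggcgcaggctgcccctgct
The windows held 2 matches for Slc2a1, 4 for Ankrd37, 1 for Pfkl and 5 for Bnip3. Of the 36 listed genes with a RefSeq window, 33 had at least 1 match in any of their windows, or 91.7%, against 64.8% of the 10317 genes above the level floor and 46.7% of all 27025 genes given. A match was present in 22 of 25 metabolic genes and in 11 of 11 HIF pathway genes. With ACGTG alone, 14 of 25 metabolic genes and 10 of 11 HIF pathway genes had a match, against 28.4% of genes above the floor. Bnip3l and Ndrg1 had no window in the table. The HIF pathway genes were listed for known HIF control, so this share describes the list, and a match is not evidence of binding.

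The deposited values are on a log2 scale, and a gene is called higher or lower at 2-fold or more, a log2 difference of 1. The level floor of 6.39 is the median of all deposited values, so a value below it may be background. All 34 measured genes reached it on at least 1 array, but Aldoc, Slc16a3, Egln3 and P4ha2 lay below it on 1 or more arrays. The array of Dap12-KO IL-4 was compressed: its middle 50% of values spanned 2.54 log2 units, against 3.19 to 3.25 on the other 3. As most glycolytic genes are bright, each comparison that uses that array is given both as deposited and after cyclic loess, which aligns the arrays at each level. Loess moved the median of all genes from −0.40 to 0.07 for IL-4 in Dap12-KO and from −0.39 to 0.11 for the genotypes under IL-4. It moved this median by less than 0.1 for IL-4 in WT and for the untreated genotypes.

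Tyrobp itself read 14.39 in WT untreated, 14.13 in WT IL-4, 14.03 in untreated Dap12-KO and 13.27 in Dap12-KO with IL-4. The targeted gene was thus bright on both arrays labelled Dap12-KO, so the labels are not borne out by its signal, and where its probes lie relative to the deletion is not known. Every genotype difference below rests on the labels. All 8 macrophage markers were above the floor, with list medians of 12.62 to 13.36 on the 4 arrays. Of the other cell types, 5 of 8 neutrophil, 2 of 5 eosinophil, 4 of 5 B cell, 3 of 7 T and NK cell, 3 of 6 mast cell, 2 of 6 mesothelial and fibroblast and 1 of 4 erythroid markers were above it. The neutrophil list's median was 6.14, 6.07, 6.39 and 6.95 in the order of the samples above, with S100a8 at 10.09, 9.20, 9.52 and 7.86 and S100a9 between 5.44 and 5.97. Between the untreated genotypes the markers at 2-fold were Mertk (1.97, macrophages), Csf3r (1.52, neutrophils), Cma1 (1.34, mast cells) and Ms4a1 (1.13, B cells), higher in Dap12-KO, and Col1a2 (−1.26) and Dcn (−1.08) of fibroblasts, lower. In the macrophage and neutrophil lists the signs were mixed. Cd14 was at −0.68, Itgam at −0.33 and S100a8 at −0.58, but Fcgr1 at 0.82 and Adgre1 at 0.48. No mast cell or B cell marker on the array was lower in untreated Dap12-KO. Among them, Cpa3 (0.93), Tpsb2 (0.86), Cd79b (0.95) and Cd79a (0.45) were higher, below 2-fold. The rest of the mesothelial and fibroblast list lay below the floor, with Pdgfra at 0.76, Col1a1 at 0.43, Msln at −0.18 and Upk3b at −0.13. With IL-4 in WT the markers at 2-fold were Cd14 (−1.22) and Csf3r (1.16). With IL-4 in Dap12-KO, Fcgr1 (−2.15), S100a8 (−1.65), Cpa3 (−1.51) and Mertk (−1.39) were lower, and Cd8a (1.26) and Hba-a1 (1.09) higher, as deposited. Between genotypes under IL-4, S100a8 (−1.34), Siglecf (−1.31) and Fcgr1 (−1.22) were lower in Dap12-KO. Cd8a (1.47), Hba-a1 (1.45), Epx (1.39) and Elane (1.20) were higher, the last 3 above the floor only on that array. The part of cell make-up in the results was not tested, and in bulk RNA fewer cells of a type and less RNA per cell cannot be told apart. The probe sets at the 3′ and 5′ ends of Gapdh, a usual reading of RNA integrity, differed by 1.42, 1.54, 1.54 and 1.63 log2 units in the same order. Those of Actb differed by 0.39, 0.43, 0.63 and 0.51, with untreated Dap12-KO highest.

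**Figure D1:**
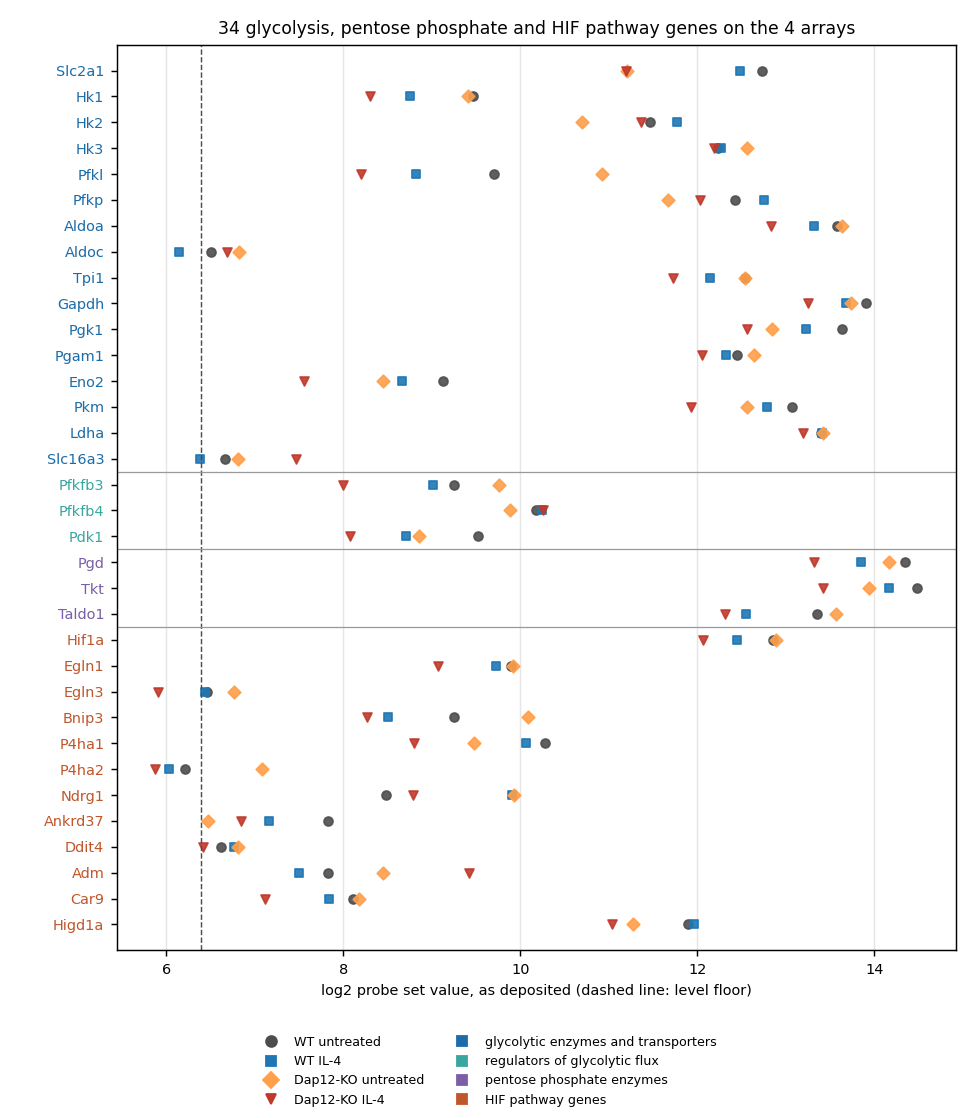
The log2 probe set value (x axis, as deposited) of each of the 34 measured genes (rows, grouped by role) is shown on each of the 4 arrays, 1 point per array, with the level floor of 6.39 as a dashed line. Slc2a1 forms 2 pairs by genotype, at 12.73 and 12.48 in WT and at 11.20 and 11.19 in Dap12-KO. Pgd reads lowest on the Dap12-KO IL-4 array, at 13.32.

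In WT macrophages, IL-4 went with slightly lower values across most of the pathway. Of the 22 metabolic genes 17 were below their untreated value and 5 above, with a median log2 difference of −0.28, against −0.03 for all genes, of which 56.3% were below and 43.6% above. The size was small: 0 of the 22 reached 2-fold in either direction, where 1.21% of all genes were 2-fold higher and 1.25% were 2-fold lower. At 1.5-fold, 1 of the 34 genes was higher and 6 were lower, beside 3.03% and 4.29% of all genes. After cyclic loess 9 of the 34 were above 0 and 25 below, beside 51.2% and 48.8%, and 1 was 2-fold higher, beside 1.33%. This shift differed little between scalings, with a metabolic median of −0.24 after cyclic loess, −0.26 after quantile normalization and −0.26 after median centring.

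The largest metabolic differences with IL-4 in WT were spread over different steps of the pathway. Pfkl, the liver-type phosphofructokinase that commits sugar to glycolysis, went from 9.70 to 8.82, a difference of −0.89. Pdk1, the kinase that keeps pyruvate out of the mitochondrial dehydrogenase, went from 9.52 to 8.71 (−0.81). Taldo1, the transaldolase of the non-oxidative pentose phosphate arm, went from 13.36 to 12.55 (−0.81). These 3 genes, and the hexokinase Hk1 at −0.71 (9.46 to 8.75), were the only metabolic genes past 1.5-fold, all 4 of them downward.

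All 3 measured pentose phosphate enzymes were lower with IL-4 in WT. Pgd, the second NADPH-forming dehydrogenase, went from 14.35 to 13.85 (−0.50), and the transketolase Tkt from 14.48 to 14.17 (−0.32). The enzymes of the later steps of glycolysis shared a narrow range: Aldoa differed by −0.27, Tpi1 by −0.39, Gapdh by −0.22, Pgk1 by −0.41, Pgam1 by −0.12 and the pyruvate kinase Pkm by −0.28. Lactate dehydrogenase A (Ldha) stayed within 0.02. On the other side were Hk2, the inducible hexokinase, with 0.31 and the platelet-type phosphofructokinase Pfkp with 0.33. Within this step the 2 phosphofructokinase genes thus differed in sign with IL-4, in all 3 probe sets of each.

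The HIF pathway genes had a median of −0.20 with IL-4 in WT, with 9 of 12 below 0, 3 above and 1 at 2-fold. Ndrg1, a stress-response gene induced by HIF, was 2.68-fold higher, at 9.90 against 8.48. It was the only one of the 34 genes at 2-fold in this comparison. Hif1a, which encodes the oxygen-regulated subunit, went from 12.86 to 12.45 (−0.41). Bnip3, a mitophagy receptor, went from 9.25 to 8.51 (−0.74), and Ankrd37, a small ankyrin repeat protein known as a HIF target, from 7.83 to 7.16 (−0.67). The prolyl hydroxylase genes Egln1 (−0.17) and Egln3 (−0.02), the collagen prolyl hydroxylases P4ha1 (−0.22) and P4ha2 (−0.18), and Higd1a (0.07), a mitochondrial protein of the hypoxia response, were all within 0.25 of their untreated value. Of these, P4ha2 lay below the floor on both arrays, at 6.21 and 6.03.

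**Figure D2:**
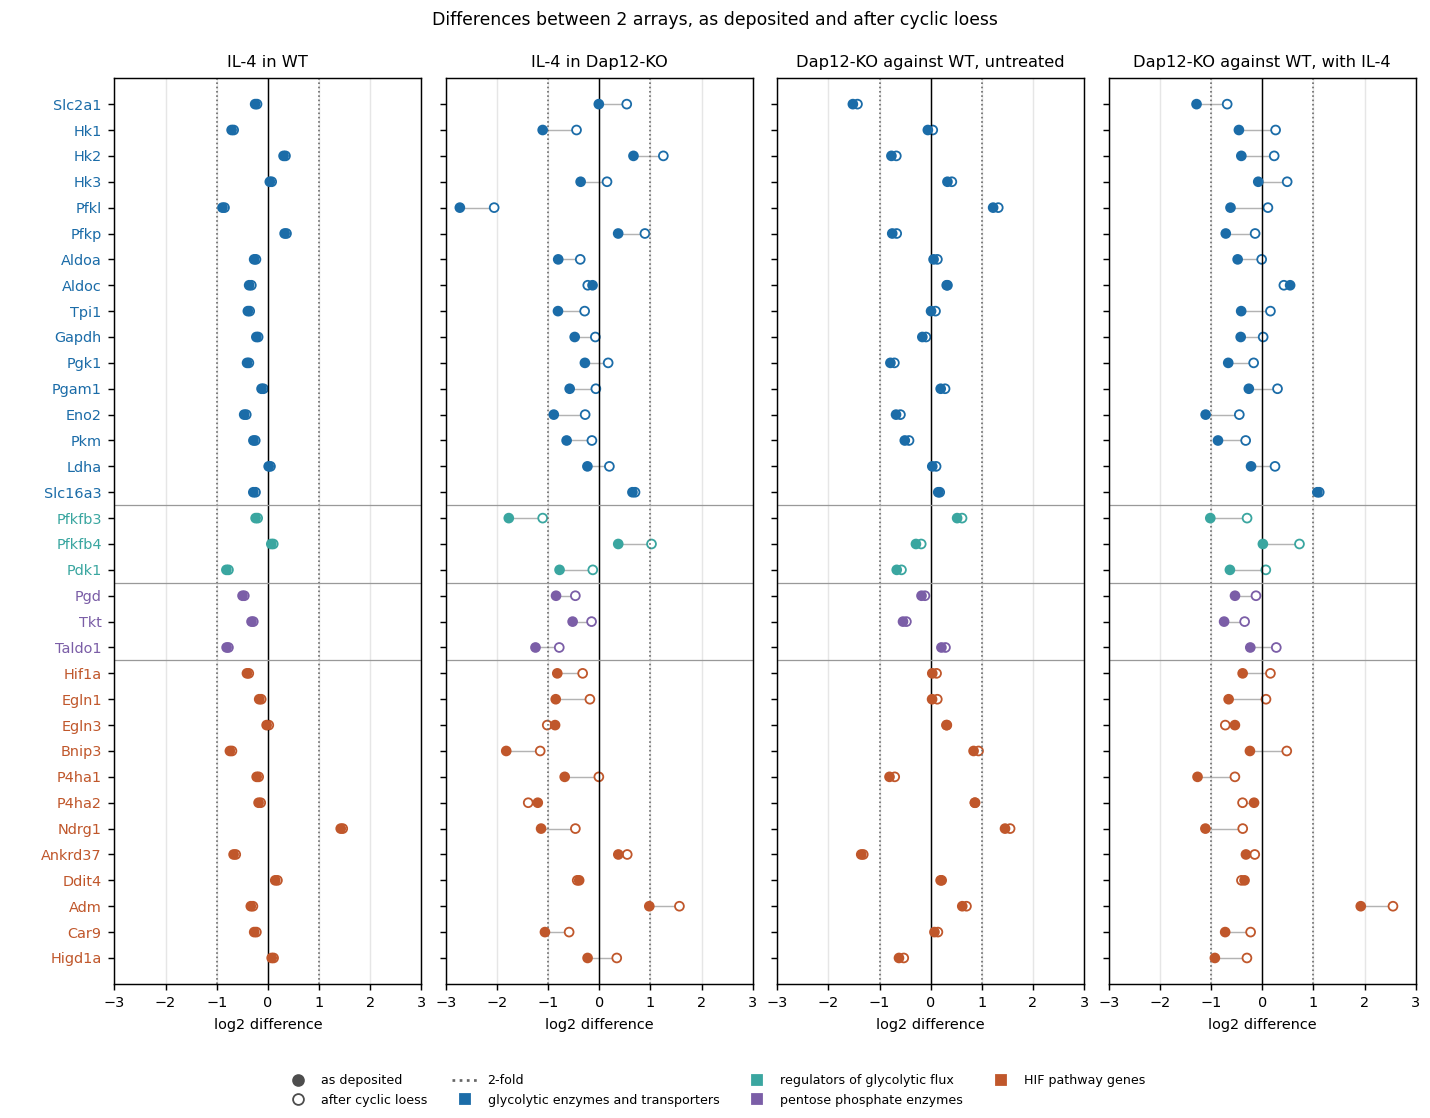
Each panel shows the log2 difference (x axis) of 1 comparison of 2 arrays for the 34 measured genes (rows), as deposited (filled) and after cyclic loess (open), with dotted lines at 2-fold. In the panels without the Dap12-KO IL-4 array (the first and the third) both readings nearly coincide. In the other 2 panels cyclic loess moves most bright genes upward, such as Pfkl from −2.73 to −2.06.

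Between the arrays labelled Dap12-KO, IL-4 went with lower values of 28 of the 34 genes, 8 of them 2-fold or more lower and 0 higher. All genes together showed 17.6% at 2-fold lower and 8.04% higher, and 66.1% below 0. After cyclic loess 5 were 2-fold lower and 3 higher, where 6.07% and 9.95% of all genes were, and 11 lay above 0 and 23 below, where 54.8% and 45.2% did. At 1.5-fold as deposited 18 were lower, beside 38.8%, and 3 higher, beside 17.4%. The metabolic median was −0.55 as deposited and −0.14 after loess, beside −0.40 and 0.07 for all genes. The HIF pathway median was −0.84 and −0.38.

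Pfkl gave the largest difference of the list. It read 10.92 untreated and 8.19 with IL-4 in Dap12-KO, a difference of −2.73, or −2.06 after loess. Its 2 other probe sets differed by −1.17 and −0.72. Pfkfb3, the bifunctional enzyme that makes the phosphofructokinase activator fructose 2,6-bisphosphate, went from 9.76 to 7.99 (−1.77, loess −1.11). Its dimmer probe set, at 7.23 and 7.33, did not follow and differed by 0.11. The related Pfkfb4 went from 9.88 to 10.25 (0.37, loess 1.02), beside 10.18 to 10.24 in WT. Taldo1 went from 13.56 to 12.32 (−1.25, loess −0.78) and Hk1 from 9.41 to 8.30 (−1.11, loess −0.45). The dim second probe set of Hk1 ran the other way, with 0.45.

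In all, 4 HIF pathway genes were 2-fold lower with IL-4 in Dap12-KO: Bnip3, P4ha2, Ndrg1 and Car9. Bnip3 went from 10.09 to 8.27 (−1.82, loess −1.16). P4ha2 went from 7.08 to 5.87 (−1.20, loess −1.39), into the range below the floor. Ndrg1 went from 9.93 to 8.79 (−1.14, loess −0.47). Car9, a membrane carbonic anhydrase of pH control, went from 8.17 to 7.11 (−1.06, loess −0.59), beside 8.10 to 7.84 in WT. Adm, the peptide hormone adrenomedullin, went the other way, from 8.44 to 9.42 (0.98, loess 1.57), but its dimmer probe set lay below the floor on both arrays and differed by −0.33. Hk2 was higher in this genotype too, at 11.36 against 10.70 (0.67, loess 1.25).

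The 2 IL-4 comparisons use no array in common, so their signs can be set side by side. Of the 22 metabolic genes 16 were lower with IL-4 in both genotypes and 3 were higher in both, namely Hk2, Pfkp and Pfkfb4. This is 72.7% lower in both, against 40.2% of all genes, or 63.6% against 26.4% after cyclic loess. Of the 12 HIF pathway genes 7 were lower in both, 0 higher in both and 5 opposite. All genes gave 40.2% lower in both, 17.7% higher in both and 5385 of 12768 opposite. After loess 6 of the HIF pathway genes were lower in both, 1 higher in both and 5 opposite. All genes then gave 26.4%, 32.4% and 5124 of 12447.

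A limma fit of IL-4 over both genotypes, blocked by genotype, with Benjamini-Hochberg adjustment over all 12768 genes, is the test made on these arrays. The genotype difference blocked by treatment was not fitted, so the genotype values below carry no test. The fit leaves 1 residual degree of freedom and treats the 2 genotypes as replicates of IL-4. Its p-values reflect no more than how these samples vary, and that variation could be technical. Pfkl fell by 1.81 (SE 0.42, adjusted p = 0.00277, limma) and was the only one of the 34 genes past an adjusted p of 0.05. In all genes 0.54% rose and 1.1% fell by this rule, so 1 of 34 is near the background. Bnip3 had a difference of −1.28 (adjusted p = 0.103, limma), Taldo1 of −1.03 (adjusted p = 0.297, limma), Pfkfb3 of −1.0 (adjusted p = 0.315, limma) and Hk1 of −0.91 (adjusted p = 0.419, limma). These 4 and Pfkl were the members with an unadjusted p under 0.05, and 0 members rose at that level, where 7.1% of all genes fell and 2.66% rose. After cyclic loess the fit called 0 genes of the whole table, with 398 rising and 416 falling at an unadjusted p under 0.05, 3 of the latter listed here, and the smallest adjusted p of a member was 0.622. The calls as deposited also follow size alone, since every gene received the same SE.

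Without IL-4, the array labelled Dap12-KO differed from WT in both directions along the pathway. Of the 34 genes 2 were 2-fold lower, Slc2a1 and Ankrd37, and 2 were 2-fold higher, Pfkl and Ndrg1, beside 3.41% and 3.12% of all genes. All 4 kept their side of 2-fold after cyclic loess, quantile normalization and median centring, as read by the brightest set. The other Ndrg1 sets differed by 0.60 to 1.59 and the other Pfkl sets by 1.01 and 0.69, so not every set reached 2-fold. After loess the shares of all genes were 2.94% lower and 3.74% higher. At 1.5-fold 5 members were higher and 9 lower, beside 9.98% and 9.77%. By sign 19 were above 0 and 15 below, beside 52.6% and 47.3%, and after loess 20 and 14, beside 58.9% and 41.1%. The median of the 34 was 0.03 and their interquartile range was 0.88 log2 units, against 0.53 for all genes.

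Slc2a1, the glucose transporter GLUT1, read 12.73 in WT and 11.20 in Dap12-KO, 2.87-fold lower (−1.52, loess −1.43). Its other probe sets gave −1.88 and −1.81. Under IL-4 it read 12.48 and 11.19 (−1.28, loess −0.69), and both WT readings lay above both Dap12-KO readings in each of its 3 probe sets as deposited. With IL-4 in WT the sets differed by −0.25, −0.55 and −0.58, and the Dap12-KO difference of −0.01 became 0.54 after loess. Both genotype differences rest on 1 array a side.

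The steps after glucose entry split by isoform in the untreated genotypes. Hk2 was lower in Dap12-KO at 10.70 against 11.47 (−0.77), while the myeloid hexokinase Hk3 was at 12.56 against 12.23 (0.33) and Hk1 at 9.41 against 9.46 (−0.06). Pfkp was lower at 11.67 against 12.42 (−0.75), and Pfkl was 2.33-fold higher at 10.92 against 9.70 (1.22). The 3 probe sets of each phosphofructokinase gene gave the same sign, from −1.0 to −0.58 for Pfkp and from 0.69 to 1.22 for Pfkl.

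Further down, Pgk1, phosphoglycerate kinase, read 13.63 in WT and 12.84 in Dap12-KO untreated (−0.79), with −0.74 and −0.61 in its other probe sets. Eno2, a second enolase known best from neurons, read 9.13 and 8.45 (−0.68), and Pkm 13.07 and 12.56 (−0.51). Pdk1 was at 9.52 and 8.85 (−0.67) and Tkt at 14.48 and 13.94 (−0.54). The dimmer probe sets of Tkt gave −0.87 and −1.91. Other steps of the same chain hardly differed: Tpi1 by 0.01, Ldha by 0.03, Aldoa by 0.05 and Gapdh by −0.17. The metabolic genes thus did not differ in 1 direction, with 12 below and 10 above 0 and a median of −0.11, which became −0.03 after loess with 11 on each side.

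The HIF pathway genes also differed in both directions, but 9 of 12 lay above 0, beside 52.6% of all genes, with a median of 0.13. Ndrg1 (1.45, from 8.48 to 9.93), P4ha2 (0.86, from 6.21 to 7.08), Bnip3 (0.84, from 9.25 to 10.09) and Adm (0.62, from 7.83 to 8.44) were higher in Dap12-KO untreated. Ankrd37 was 2.57-fold lower, at 6.47 against 7.83 (−1.36), close to the floor. P4ha1 read 10.28 in WT and 9.48 in Dap12-KO (−0.81), and Higd1a 11.89 and 11.27 (−0.62). The 2 collagen prolyl hydroxylase genes thus lay on opposite sides. Hif1a (0.03), Egln1 (0.03) and Car9 (0.07) differed by less than 0.1.

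With IL-4 on both sides, 5 of the 34 genes were 2-fold lower in Dap12-KO and 2 higher, beside 17.6% and 10.9% of all genes. After cyclic loess 0 were 2-fold lower and the same 2, Adm and Slc16a3, remained higher, beside 5.51% and 12.6%. At 1.5-fold as deposited 14 were lower and 2 higher, beside 38.8% and 19.6%. By sign 30 were below 0, beside 65.8%, and after loess 17 lay on each side, where 42.3% of all genes were below and 57.7% above. The metabolic median of −0.47 turned to 0.09 after loess and to 0.02 after quantile normalization, so no direction is given for the group. The 5 lower genes as deposited were Slc2a1, P4ha1 at 8.80 against 10.06 (−1.27, loess −0.53), Eno2 at 7.56 against 8.66 (−1.11, loess −0.45), Ndrg1 at 8.79 against 9.90 (−1.11, loess −0.38) and Pfkfb3 at 7.99 against 9.01, where untreated WT read 9.25 (−1.02, loess −0.30). Adm was 3.80-fold higher, at 9.42 against 7.49 (1.93, loess 2.56), and its dimmer probe set gave 0.52. Slc16a3, the lactate exporter MCT4, read 7.46 against 6.38 (1.08, loess 1.11), where the WT reading lay just below the floor. Untreated, it read 6.67 in WT and 6.81 in Dap12-KO.

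The genotype differences in the 2 treatments also share no array. By sign, 11 of the 22 metabolic genes were lower in Dap12-KO in both treatments and 2 higher in both, or 50% and 9.09%, beside 39.3% and 26.2% of all genes. After loess 7 were lower and 9 higher in both, or 31.8% and 40.9%, beside 27.3% and 43.9%. Slc2a1, Pfkp, Pgk1, Eno2, Pkm, Pgd, Tkt, P4ha1, Ankrd37 and Higd1a were lower in both treatments before and after loess. Of all 34 members 14 were lower in both as deposited, or 41.2%, beside 39.3% of all genes. After loess these 10 were, or 29.4%, beside 27.3%, so both shares are near those of all genes. Under IL-4 Pgk1 read 13.22 in WT and 12.56 in Dap12-KO, with −0.17 after loess. Tkt read 14.17 and 13.42 (−0.75, loess −0.34), with −0.84 and −2.24 in its dimmer probe sets as deposited. Pkm differed by −0.87 (loess −0.32). Pdk1, at 8.71 and 8.07 (−0.63) in its brightest probe set, turned to 0.07 after loess. Its other sets, as deposited, gave −2.72 (9.22 against 6.50), −1.54 and −0.12, the last below the floor on both arrays. Pgd, at 14.17 in untreated Dap12-KO, read 13.85 in WT and 13.32 in Dap12-KO under IL-4.

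The IL-4 response was then compared between genotypes, as the Dap12-KO difference minus the WT difference. For 5 genes it was 2-fold or more lower in Dap12-KO and for 2 higher, beside 14.8% and 8.15% of all genes. At 1.5-fold 8 were lower, beside 35.3%, and 24 of the 34 were below 0, beside 66%. After loess 4 were 2-fold lower, beside 5.75%, and 22 lay above 0 and 12 below, beside 55.2% and 44.8%. Ndrg1 gave the largest value, −2.56 (loess −1.93), since IL-4 went with a higher reading in WT and a lower one in Dap12-KO. Pfkl followed with −1.84 (loess −1.21), then Pfkfb3 with −1.53 (loess −0.91), Bnip3 with −1.08 (loess −0.45) and P4ha2 with −1.02 (loess −1.25). The dimmer Pfkfb3 set gave −0.06 and so did not show this difference. In Bnip3 and P4ha2 the untreated Dap12-KO reading was the highest of the 4 and the IL-4 reading of that genotype the lowest, as deposited. So it was in the brightest Pfkl set, while its other sets put WT with IL-4 lowest (8.54 against 8.89, and 6.88 against 7.17) and gave differences of responses of −0.65 and −0.41. Adm (1.31, loess 1.86) and Ankrd37 (1.04, loess 1.17) lay on the other side, the latter at 6.47 untreated and 6.84 with IL-4 in Dap12-KO. The metabolic median was −0.30 as deposited and 0.12 after loess.

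**Figure D3:**
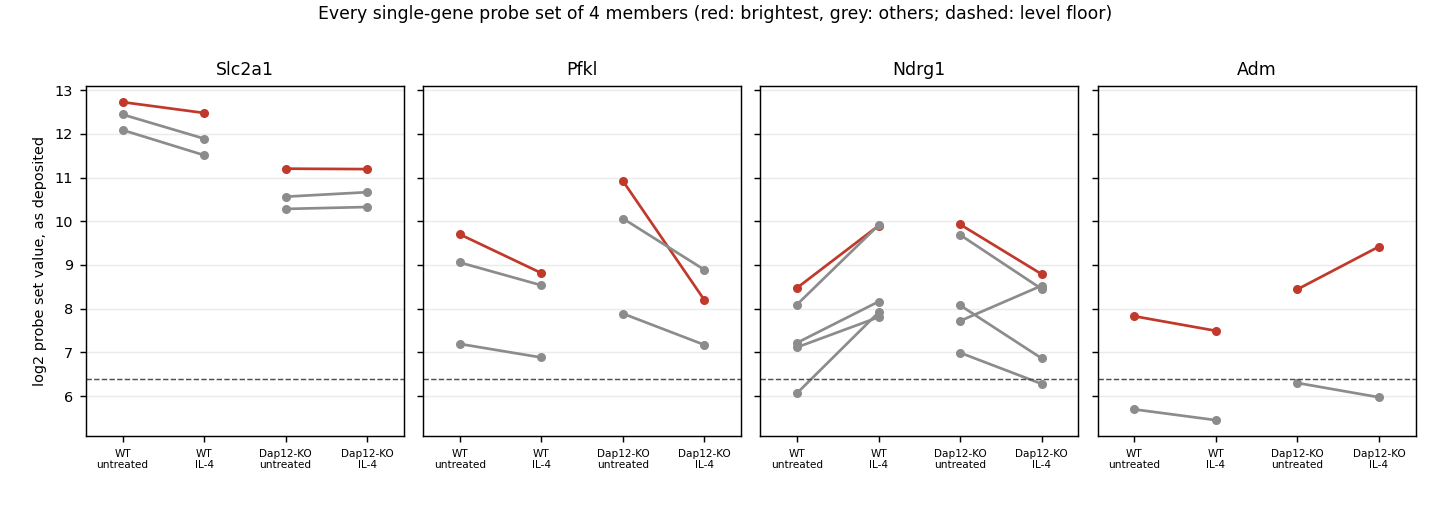
Log2 values (y axis, as deposited) of every single-gene probe set of Slc2a1, Pfkl, Ndrg1 and Adm on the 4 arrays, with lines joining untreated and IL-4 of a genotype, the brightest probe set in red and the level floor dashed. All 3 Slc2a1 sets are lower in Dap12-KO. For Ndrg1 4 of 5 sets are lower with IL-4 in Dap12-KO and 1 does not, and the 2 Adm sets part in that genotype.

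Of the 34 genes 21 had more than 1 single-gene probe set, 75 probe sets in all members. All sets of a gene had the same sign in 14 of the 21 for IL-4 in WT, in 14 for IL-4 in Dap12-KO, in 18 for the untreated genotypes and in 15 for the genotypes under IL-4. Ndrg1 is the clearest case. With IL-4 in WT its 5 sets differed by 0.69 to 1.85. In Dap12-KO 4 of them differed by −1.24 to −0.71 and the third brightest by 0.81. Pdk1 had 4 sets whose sizes parted under IL-4 in Dap12-KO: the brightest on average gave −0.78, and the next, from 9.21 to 6.50, gave −2.71. The Aldoa and Pgd readings come from probe sets whose names end in _x_at, a mark of possible cross-hybridisation, as do those of Hk3, Tpi1, Tkt and Adm. Several glycolytic genes, Gapdh among them, also have processed pseudogenes. Gapdh was read by the array maker's control probe set for its 3′ end.

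Metabolic and HIF pathway genes were contrasted within each comparison by their medians and spread. With IL-4 in WT they were close, at −0.28 and −0.20, with interquartile ranges of 0.30 and 0.35 log2 units. In Dap12-KO the HIF pathway genes were lower with IL-4 by median, at −0.84 against −0.55 (loess −0.38 against −0.14, quantile −0.43 against −0.15). By the median over probe sets these medians were closer, at −0.61 against −0.53, so the gap depends on the probe sets chosen. Between untreated genotypes the medians were 0.13 for HIF pathway and −0.11 for metabolic genes (loess 0.18 and −0.03), with 9 of 12 against 10 of 22 above 0. All genes had 52.6% above 0 there. Under IL-4 they were −0.46 and −0.47 as deposited and −0.26 and 0.09 after loess. In each comparison the single genes overlapped widely between both groups, and the difference of the medians was not tested.

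**Figure D4:**
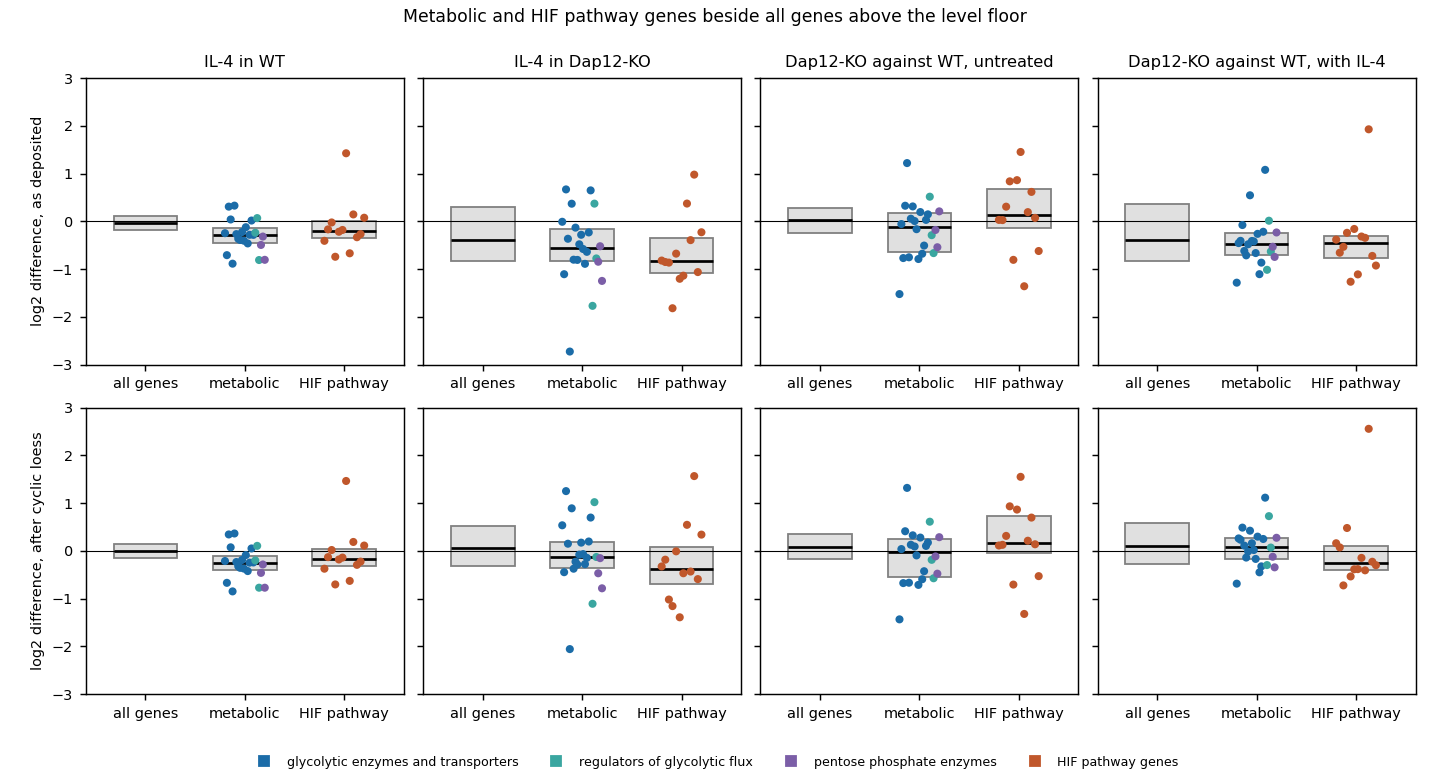
Log2 differences (y axis) of the 22 metabolic and 12 HIF pathway genes, 1 point per gene, beside all genes above the floor, as deposited (upper row) and after cyclic loess (lower row). Boxes span the interquartile range and bars mark the median. With IL-4 in WT the metabolic box lies below 0 in both rows, and the metabolic median of the genotypes under IL-4 changes sign between the rows.

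Other genes of the same pathways came from 2 lists that were not picked for how their genes moved, though earlier results of these data were known when they were written. Among 31 measured further genes of glycolysis, pyruvate use and the pentose phosphate branch, 0 were 2-fold higher or lower with IL-4 in WT, beside 1.21% and 1.25% of all genes, and 0 between the untreated genotypes, beside 3.12% and 3.41%. With IL-4 in Dap12-KO 5 were higher and 4 lower, beside 8.04% and 17.6%. Between genotypes under IL-4 5 were higher and 6 lower, beside 10.9% and 17.6%. After loess, with 30 of these genes measured, 6 were higher and 2 lower with IL-4 in Dap12-KO, beside 9.95% and 6.07%. Between genotypes under IL-4 loess gave 6 higher and 1 lower, beside 12.6% and 5.51%. Their median with IL-4 in WT was −0.06, nearer to that of all genes than the −0.28 of the 22. H6pd, the pentose phosphate dehydrogenase of the endoplasmic reticulum, had the largest difference there, from 9.61 to 8.63 (−0.98). In Dap12-KO it went from 9.86 to 7.54 (−2.33, loess −1.67).

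Among 27 measured further HIF pathway genes, 3 were 2-fold higher and 3 lower in Dap12-KO untreated, beside 3.12% and 3.41% of all genes, and the counts were the same after loess, beside 3.74% and 2.94%. With IL-4 in WT 1 was higher and 0 lower, beside 1.21% and 1.25% of all genes. In Dap12-KO 1 was higher and 7 lower with IL-4, beside 8.04% and 17.6%. There loess left 2 and 2, beside 9.95% and 6.07%. Between genotypes under IL-4, 1 was higher and 5 lower, beside 10.9% and 17.6%, and after loess 3 and 4, beside 12.6% and 5.51%. Vegfa, the vascular growth factor induced by HIF, read 11.16 in WT and 9.03 in Dap12-KO (−2.13), and under IL-4 10.85 and 8.76 (−2.09, loess −1.37). The adenylate kinase Ak4 (−1.95) and the signalling inhibitor Errfi1 (−1.43) were also lower untreated. Ccng2 (1.89), Mxi1 (1.44) and Epas1, which encodes HIF-2 alpha (1.34), were higher. With IL-4 in Dap12-KO, Ccng2 (−2.68, loess −2.02) and Mxi1 (−2.03, loess −1.36) were lower, as Pfkl and Bnip3 were. Vegfa, Ak4 and Slc2a1 each differed by less than 0.35 with IL-4 in either genotype as deposited.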

How the data were processed

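Total RNA of 4 mouse macrophage samples, 1 per group, was labelled after 2 cycles of in vitro amplification and read on 1-colour Affymetrix arrays, per the labels' protocols, which favours the 3′ end of transcripts. The authors deposited log2 values, and the submitters' processing notes name RMA, with a version not given in the sources used here. No detection calls were used.

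Of 45101 probe sets, 34958 name 1 gene in GEO's platform annotation, 932 several and 9211 none. Symbols were updated through Entrez identifiers to RefSeq GRCm38.p6 (34754 matched). Control probe sets that name 1 mouse gene were kept, which gives Gapdh its value. Each of 18194 genes was read by its brightest probe set by mean over the 4 arrays, and genes whose highest value reached 6.39 (12768) were kept. Groups follow the titles. Log2 differences were taken between arrays, with calls at 2-fold, and limma 3.58.1 (R 4.3.3, lmFit and eBayes, 1 residual degree of freedom) tested the IL-4 effect across the genotypes. On simulated data for that comparison, with 200 of 12768 genes changed and equal spread, the fit recovered 22% of changes of 1 log2 unit and 100% of 2, with 11 false calls among 172. When spread varied by gene, recovery was 12% and 96%, and 27 of 181 calls were false.

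Alternatives were cyclic loess (3 iterations), quantile normalization, median centring, no floor, a floor at 8.38, a gene's median over its probe sets, single probe sets, a 1.5-fold threshold, an intensity trend, no genotype term and, for promoters, ACGTG alone. Leaving control probe sets out was added after values had been seen. The members, lists and rules were chosen with earlier results of these data known. Any member may be named. By rule, 19 have their values on all 4 arrays given: those at 2-fold in any of 4 comparisons of 2 arrays, and the 3 largest of each role group in each of them. The further genes Vegfa, Ak4, Errfi1, Ccng2, Mxi1, Epas1, H6pd, Mertk, Csf3r, S100a8, S100a9, Cma1, Ms4a1, Col1a2, Dcn, Cd14 and Itgam were named after their values were seen. So were Pdgfra, Col1a1, Msln, Upk3b, Fcgr1, Adgre1, Cpa3, Tpsb2, Cd79a, Cd79b, Siglecf, Epx, Elane, Cd8a and Hba-a1. Python 3.11.15, numpy 2.4.6, pandas 2.3.3 and matplotlib 3.10.9 did the rest.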

Additional observations from a re-analysis of the deposited data

Results flagged for a closer look

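Of the 34 measured genes, Ndrg1 alone had readings with IL-4 that were 2-fold higher in one genotype and 2-fold lower in the other, with 1.42 in WT and −1.14 in Dap12-KO, so the responses differed by −2.56. The same 4 readings give a genotype difference of 1.45 untreated and −1.11 under IL-4. After cyclic loess the Dap12-KO response was −0.47 and the difference −1.93. With 1 array a group the difference was not tested, and the third of its probe sets by brightness, at 0.69 and 0.81, did not show it.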

How the results depend on the processing

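With 1 array a group no replicate could be left out. No pairing by replicate was possible because the labels give no replicate numbers. The limma fit pairs the arrays by genotype only, as its block. Leaving control probe sets out moved no count or median by over 1.5-fold. The medians of both gene groups kept their sign in every setting but these: the metabolic median of the genotypes under IL-4 became 0.0905 with cyclic loess and 0.0172 with quantile normalization, and that of the difference of responses 0.12 and 0.13.

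With IL-4 in WT, 0 members were 2-fold higher by the median over probe sets, and 6 were lower at 1.5-fold, beside 4.29% of all genes. With IL-4 in Dap12-KO, 3 were higher and 5 lower with cyclic loess, beside 9.95% and 6.07% of all genes. Quantile normalization gave 2 and 5, beside 1502 and 1116 of 12631 genes, and the 1.5-fold threshold 3 and 18, beside 17.4% and 38.8%. Between untreated genotypes, 1 was lower with a floor at 8.38 and 1 higher by the median over probe sets. At 1.5-fold 5 were higher and 9 lower, beside 9.98% and 9.77% of all genes. Under IL-4, 0 were lower with cyclic loess, beside 5.51% of all genes, and 0 with quantile normalization, beside 1012 of 12631. With median centring 1 was higher, beside 1056 of 12631, and 1 with the floor at 8.38. At 1.5-fold 14 were lower, beside 38.8%. For the difference of responses, 1 was higher with median centring, beside 742 of 12631 genes. The floor at 8.38 and the median over probe sets also gave 1. At 1.5-fold 8 were lower, beside 35.3% of all genes. No 2-fold count of all genes was made with the floor at 8.38 or by the median over probe sets.

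The limma fit called 0 genes rising and 0 falling, and so 0 members, with cyclic loess, quantile normalization or no floor. At an unadjusted p under 0.05 the first gave 398 rising and 416 falling, the second 252 and 349 and the third 226 and 736. Without the genotype term it called 7 rising and 0 falling genes and 0 members, with 93 and 371 at an unadjusted p under 0.05. With an intensity trend 71 fell. Over all settings the smallest adjusted p among the members (limma) ran from 0.00206 to 0.725.

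After cyclic loess 13 of the 34 members had the opposite sign between genotypes under IL-4 and 12 for the difference of responses, against 5 for IL-4 in Dap12-KO and 1 each in the comparisons without the Dap12-KO IL-4 array. Among differences of 2-fold or more, signs turned for Ndrg1, Pfkfb3, Hk1 and Adm. By the median over probe sets Ndrg1 gave 0.37 with IL-4 in Dap12-KO and 0.29 between genotypes under IL-4, because the median probe set differs between arrays. For the same gene the third of its sets by brightness gave 0.81, 0.72 and, for the difference of responses, 0.12. Below 2-fold, the other Pfkl sets gave 0.35 and 0.29 between genotypes under IL-4. The second Pfkfb3 set gave 0.11 with IL-4 in Dap12-KO and 0.55 between genotypes under IL-4, the second Hk1 set 0.45 with IL-4 in Dap12-KO, and the second Adm set −0.081 for the difference of responses. The cause of these changes was not tested. The level of dim members, P4ha2, Egln3, Aldoc and Slc16a3, is limited by background.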
